A study of Homo sapiens with 14 samples.

Results

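Nascent transcription was compared between A549 cells that received GSK591 together with dexamethasone and A549 cells that received GSK591 alone, both for 15 min. A549 is an established human lung adenocarcinoma cell line of epithelial character. GSK591, an inhibitor of the arginine methyltransferase PRMT5, was used at 1 µM, and dexamethasone (Dex), a synthetic glucocorticoid, at 100 nM, all in 0.01% DMSO. The comparison rests on 4 of the 14 libraries of the series, 2 with GSK591 and Dex and 2 with GSK591, chosen by their labels. The other libraries were untreated cells, cells with MS023 (an inhibitor of type I arginine methyltransferases, 1 µM) for 15 min, alone or together with Dex, and cells exposed for 3 h to one of the inhibitors, with 2 libraries per group. Libraries of cells given Dex without an inhibitor were not analysed here, so the response described is that to Dex in the presence of GSK591. Whether replicates came from separate cultures is not given in the sources used here. The p-values then measure only the spread between libraries, which was estimated within the groups of all 14 libraries.

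The assay was PRO-seq, in which permeabilized cells extend their engaged RNA polymerases with a labelled nucleotide and the labelled, newly made RNA is sequenced, so that reads show where polymerases were active at that moment. Dex enters the cell and binds the glucocorticoid receptor, encoded by NR3C1, which is held in the cytoplasm by chaperones. The bound receptor moves to the nucleus, binds DNA at glucocorticoid elements that mostly lie far from promoters, and raises transcription of feedback, metabolic and anti-inflammatory genes while restraining transcription driven by NF-κB and AP-1. In lung epithelium these actions underlie the use of glucocorticoids against airway inflammation.

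The 4 libraries held between 7317701 and 8607006 counted reads. Reads assigned to the mitochondrial genome made up 48.6% and 46.9% of counts with GSK591 and 48.2% and 58.0% with GSK591 and Dex, so the second library of the Dex group stood apart. Levels are given as CPM (counts scaled to a fixed library total) after TMM scaling, which sets libraries to a common level over most genes. Between the 2 Dex libraries the chi-square per degree of freedom was 13.4 over 22222 genes. Between the 2 GSK591 libraries it was 2.85 over 23156 genes. This measure used counts before TMM scaling, mitochondrial genes included, so it also holds the difference in mitochondrial share and is not a separate observation. All 14 A549 and epithelial markers had counts in each of the 4 libraries, and their sum ran from 1580 to 1854 CPM by library size. The sum of 14 markers of blood, stromal, endothelial, liver and muscle cells ran from 7.32 to 11.7 CPM, with 7 or 8 of them at 0 and most of the reads from COL1A1 and CD68.

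Dex added to GSK591 changed 811 of 21910 genes tested (3.7%) in edgeR's quasi-likelihood test at a Benjamini-Hochberg adjusted p under 0.05. Of these, 313 rose (1.43%), led by classical glucocorticoid targets such as PER1, ERRFI1 and TSC22D3, and 498 fell (2.27%), among them the glycogen synthase gene GYS1 and the cytoplasmic actin genes ACTB and ACTG1. These shares of all genes tested are the background for the counts of called list members given below. The median log2 fold change was 0.67 among genes that rose and -0.57 among genes that fell, against -0.0043 over all genes tested. A change of at least 2-fold was reached by 82 of the genes that rose and 59 of those that fell. The libraries of the groups did not overlap for 809 of the called genes, against 9526 of all genes tested (43.5%). In a single population of cells, fewer transcribing cells and less transcription per cell cannot be told apart. The split between rises and falls depended on the scaling: library size alone, which counts mitochondrial reads into the total, gave 98 higher and 1374 lower and moved the median of all genes to -0.21, and the size of the nuclear part alone gave 221 higher and 677 lower. Without the second Dex library 354 genes were called, 159 higher and 195 lower, and 291 of them were among the 811.

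**Figure D1:**
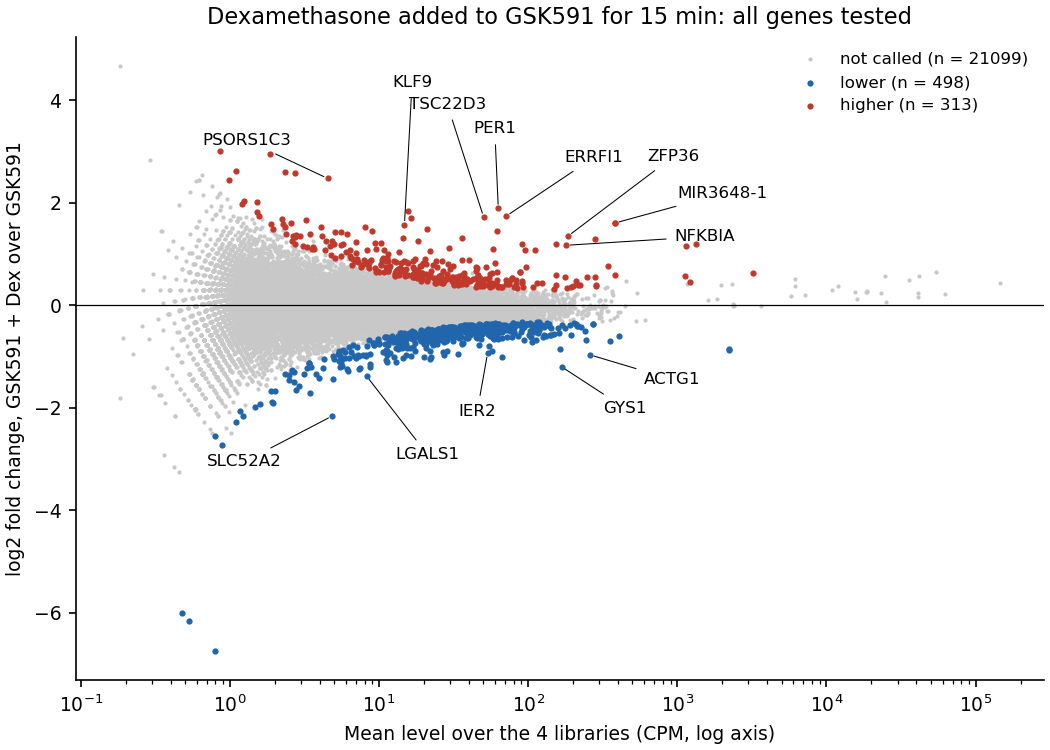
Each point is 1 of 21910 genes tested, with its mean level over the 4 libraries (CPM, log axis) against its log2 fold change with Dex. Red points rose (313), blue points fell (498) and grey points did not pass the test. Points at low levels spread widely, and the 3 blue points below -6 are genes with mean levels under 1 CPM.

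The genes with the smallest p were textbook early targets of the receptor. PER1, a repressor of the circadian clock (hg38, chr17:8140472-8156506, minus strand), had 27.4 and 26.1 CPM with GSK591 and 107 and 91.2 CPM with Dex added (log2 fold change 1.89 ± 0.13 SE, adjusted p = 7.7e-14 in edgeR). ERRFI1, which encodes a feedback inhibitor of the EGF receptor (chr1:8004404-8026308, minus strand), went from 31.7 and 34 CPM to 120 and 99.2 CPM (1.74 ± 0.11, adjusted p = 5.5e-14 in edgeR). TSC22D3 encodes GILZ, a mediator of the anti-inflammatory action of glucocorticoids (chrX:107713221-107777342, minus strand). It went from 23.4 and 23.4 CPM to 82.9 and 71.3 CPM (1.72 ± 0.12, adjusted p = 7.7e-14 in edgeR). In all 3 genes both Dex libraries lay far above both GSK591 libraries, and untreated cells stood at the GSK591 level, with 26.9 and 29 CPM for PER1. Exons of ERRFI1 overlap those of ENSG00000284747, which fell (-0.59), and exons of PER1 overlap those of 2 further annotated genes, so the reads of such genes are uncertain where counting did not use strand.

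Among the rises were inhibitors of inflammatory and stress signalling, named here as single genes. ZFP36 encodes tristetraprolin, which destabilizes cytokine mRNAs, and had 106 and 103 CPM with GSK591 against 275 and 258 CPM with Dex (log2 fold change 1.35 ± 0.10, adjusted p = 4.2e-13 in edgeR). NFKBIA, the cytoplasmic inhibitor of NF-κB, had 119 and 102 CPM against 265 and 233 CPM (1.17 ± 0.10, adjusted p = 1.1e-10 in edgeR). TNFAIP3, a ubiquitin-editing inhibitor of NF-κB signalling, rose at a low level from 7.65 and 7.03 CPM to 13.3 and 13.8 CPM (0.88 ± 0.19). In these 3 genes the groups did not overlap, as in 43.5% of all genes tested. DUSP1, a phosphatase that switches off MAP kinases, was already transcribed at 261 and 246 CPM and rose to 465 and 401 CPM (0.77 ± 0.11, adjusted p = 7.1e-06 in edgeR).

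The list of 41 glucocorticoid targets, collected from textbook knowledge with earlier results of these data known, had 38 members tested. Of these 23 rose, 1 fell and 14 did not pass the test. The median log2 fold change of the 38 was 0.83, and 34 lay above 0. This list is not independent evidence of its direction. The 23 rises ran from 0.52 for CEBPD to 1.89 for PER1. The single fall was KLF15. Members that did not pass included CRISPLD2 at 1.11 with 0.824 and 1.07 CPM against 1.84 and 2.3 CPM, BIRC3 at 0.49, RGS2 at 0.39, FOXO1 at 0.39 and SCNN1A at 0.29. Under library size alone 21 of the 23 rises were still called, and without the second Dex library 23 members were called higher and none lower, though not the same 23, since BCL6 lost its call (adjusted p = 0.065 in edgeR).

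**Figure D2:**
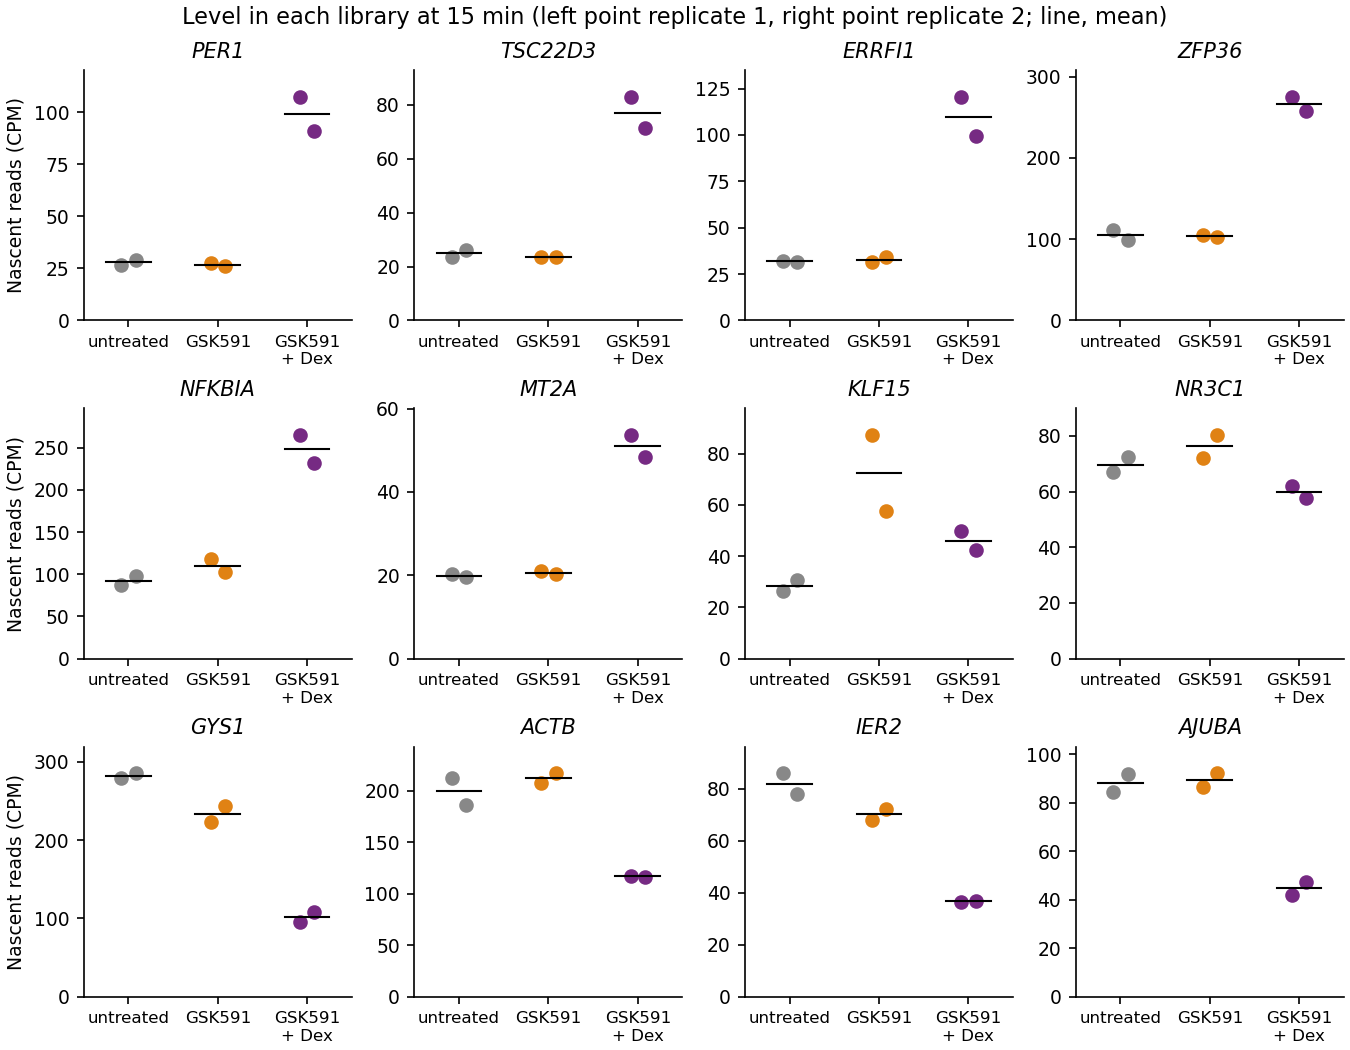
Nascent reads (CPM) of 12 genes in each library of untreated, GSK591 and GSK591 plus Dex cells at 15 min; points are libraries, lines are means of 2. The top row and NFKBIA and MT2A stand higher with Dex, GYS1, ACTB, IER2 and AJUBA stand lower, and KLF15 lies between the untreated and GSK591 levels.

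Of 32 fuel metabolism genes tested, 3 rose with Dex, 1 fell and 28 did not pass. ANGPTL4, a secreted inhibitor of lipoprotein lipase, had 34.7 and 31.7 CPM with GSK591 and 93.1 and 88.0 CPM with Dex (log2 fold change 1.45 ± 0.11, adjusted p = 1.1e-12 in edgeR). PDK4, the kinase that shuts off pyruvate dehydrogenase, had 9.42 and 12.0 CPM against 24.5 and 27.1 CPM (1.26 ± 0.16). IRS2, an adaptor of the insulin receptor, had 62.8 and 59.3 CPM against 138 and 120 CPM (1.08 ± 0.10). All 3 rises are also members of the glucocorticoid target list, and among the 27 fuel metabolism genes outside it none rose and 1 fell. The median of the 32 was 0.05 and turned to -0.14 under library size alone. MT2A and MT1X, 2 metallothioneins that bind zinc and copper, rose by 1.31 ± 0.12 and 0.87 ± 0.13, and MT1F, the other metallothionein tested of 11 listed, stood at 0.77 without passing. The lincRNA ENSG00000260823, which lies on the opposite strand 4 bases from the end of MT2A, rose by 1.85 ± 0.18.

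GYS1, which encodes the glycogen synthase of muscle and most other tissues (chr19:48968125-48993310, minus strand), was the clearest fall among abundant genes. It had 223 and 244 CPM with GSK591 and 95.1 and 108 CPM with Dex (log2 fold change -1.20 ± 0.11, adjusted p = 1.3e-10 in edgeR). Untreated cells had 279 and 285 CPM, so both Dex libraries lay below every other library of untreated or GSK591 cells at 15 min. Dex beside MS023 gave -0.86 for GYS1. It was the single fall in the fuel metabolism list.

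The falls also included single genes of the actin cytoskeleton and of cell junctions, named without a list of such genes having been tested. ACTB, cytoplasmic beta actin, had 207 and 217 CPM with GSK591 and 118 and 116 CPM with Dex (log2 fold change -0.86 ± 0.10, adjusted p = 3.4e-07 in edgeR). ACTG1, gamma actin, had 339 and 349 CPM against 207 and 145 CPM (-0.97 ± 0.12, adjusted p = 4.8e-07 in edgeR). FLNA, which crosslinks actin filaments, had 273 and 290 CPM against 198 and 200.01 CPM (-0.50 ± 0.10). In each of these the groups did not overlap, as in 43.5% of all genes tested. Untreated cells stood near the GSK591 level, with 212 and 187 CPM for ACTB. AJUBA, a scaffold of cell junctions that binds the LATS kinases of the Hippo pathway, went from 86.3 and 92.0 CPM to 42.0 and 47.3 CPM (-0.999 ± 0.11, adjusted p = 4.2e-08 in edgeR). LGALS1, a secreted galactose-binding lectin, went from 11.0 and 12.9 CPM to 4.10 and 5.05 CPM (-1.38 ± 0.22).

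Among the targets of TGF-β, BMP and YAP signalling, 5 of 24 tested rose and 2 fell, with a median of -0.02. The rises included ANKRD1 (1.00), from 6.12 and 9.06 CPM to 13.2 and 17.3 CPM, CCN2 (0.90), from 12.2 and 11.9 CPM to 18.8 and 26.3 CPM, the BMP antagonist gene GREM1 (0.59) and BAMBI (0.49), a decoy receptor. AJUBA and SMAD6 (-0.43) fell. Exons of CCN2 overlap those of AL133346.1, which rose as well (1.11), so the reads of both are uncertain. Without the second Dex library, ANKRD1, CCN2 and BAMBI were no longer called.

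The immediate early and AP-1 list, genes that respond first to growth factors and stress, split evenly. Of 39 members tested, 9 rose and 9 fell, with a median of -0.02. Besides ZFP36, the rises included KLF6 (1.21), EGR1 (1.25), KLF4 (0.77), MCL1 (0.75), BTG1 (0.61) and the AP-1 gene FOSL2 (0.40). Exons of MCL1 overlap those of ADAMTSL4-AS1, which rose as well (0.75), so the reads of both are uncertain. EGR1 encodes a zinc finger factor and rose at a low level, from 3.06 and 2.62 CPM to 6.22 and 7.35 CPM. The 9 falls were led by IER2, a short-lived nuclear protein gene with 68.2 and 72.1 CPM against 36.5 and 36.9 CPM (log2 fold change -0.93 ± 0.11, adjusted p = 7e-08 in edgeR). The others were IER5L (-0.58), KLF10 (-0.53), PPP1R15A (-0.51), JUN (-0.40), MAFG (-0.39), IER5 (-0.36), NR4A1 (-0.36) and IER3 (-0.33). Exons of IER3 overlap those of IER3-AS1, which fell as well (-0.62), with the same uncertainty. FOS and FOSB did not pass, at 0.34 and 0.52. Without the second Dex library 7 members were higher and 2 lower, EGR1 stood at 1.14 with an adjusted p of 0.075 in edgeR, and under library size alone 5 were higher and 11 lower.

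Among 32 cytokine and NF-κB genes tested, NFKBIA, TNFAIP3 and CXCL2 rose and NFKB2 and TNFAIP2 fell, and 27 did not pass. CXCL2, a chemokine that attracts neutrophils, had 24.1 and 20.9 CPM with GSK591 and 39.3 and 34.6 CPM with Dex (log2 fold change 0.72 ± 0.14). NFKB2, which encodes the p100 subunit precursor, had 70.9 and 70.6 CPM against 49.9 and 40.9 CPM (-0.64 ± 0.11, adjusted p = 0.00022 in edgeR). TNFAIP2 had 237 and 225 CPM against 159 and 149 CPM (-0.59 ± 0.10). The groups did not overlap in any of the 3, as in 43.5% of all genes tested. Of chemokine and adhesion genes that glucocorticoids are known to restrain, CXCL1 stood at -0.35, CCL2 at -0.11, CXCL8 at 0.31 and ICAM1 at 0.05 on the log2 scale, none past the test. CXCL8 was near 1 CPM, with 1.41 and 1.19 CPM against 1.41 and 1.84 CPM, where the depth could not show a moderate change.

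Of 29 genes of MAP kinase and EGF receptor feedback, ERRFI1, DUSP1, SPRY2 (0.63) and DUSP5 (0.50) rose and the receptor gene ERBB3 (-0.78) fell. The median of 0.04 turned to -0.16 under library size alone. The ERBB3 call was lost in DESeq2 (adjusted p = 0.17), with only the groups compared (0.14 in edgeR) and without the second Dex library (0.25 in edgeR). In the circadian clock list PER1 was the single rise among 22 tested, and BHLHE40, a repressor in the same loop, the single fall, from 152 and 166 CPM to 102 and 108 CPM (log2 fold change -0.60 ± 0.10). PER2, with 16.1 and 17.4 CPM against 22.2 and 23.0 CPM, stood at 0.43 and did not pass (adjusted p = 0.084 in edgeR). In the salt transport list, where glucocorticoids and mineralocorticoids share targets, SGK1 rose from 33.6 and 35.6 CPM to 56.2 and 53.6 CPM (0.67 ± 0.12), alongside PER1 and TSC22D3, while KLF15 (-0.65) fell and 14 did not pass; the SGK1 call was lost under library size alone (adjusted p = 0.053 in edgeR). SGK1 encodes the kinase that keeps the epithelial sodium channel at the cell surface. SGK1, PER1, TSC22D3 and KLF15 are also members of the glucocorticoid target list. Among the 13 salt transport genes tested outside that list, none was called. The median over the 18 salt transport genes was 0.15 and became -0.05 under library size alone.

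**Figure D3:**
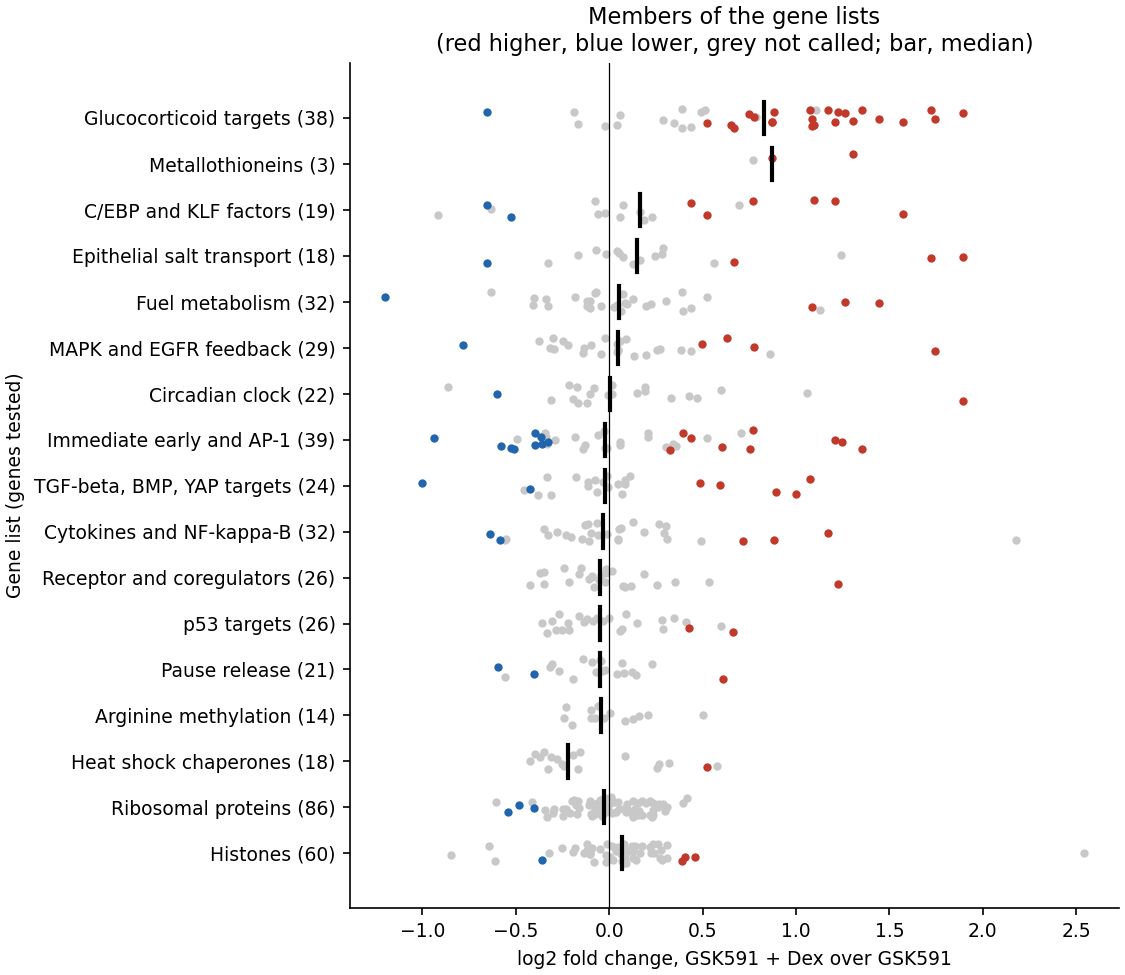
Log2 fold change with Dex beside GSK591 for each tested member of 17 gene lists (1 point per gene; vertical position within a row has no meaning). Red members rose, blue members fell, grey members did not pass the test, and black bars are medians: the bar of the glucocorticoid targets stands at 0.83 and that of the heat shock chaperones at -0.22.

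The receptor itself did not pass the test. NR3C1 had 72.2 and 80.2 CPM with GSK591 and 62.1 and 57.7 CPM with Dex (log2 fold change -0.35 ± 0.11, adjusted p = 0.064 in edgeR). Both Dex libraries lay below both GSK591 libraries, a separation of groups that held for 43.5% of all genes tested. The adjusted p for NR3C1 in edgeR fell to 0.018 under library size alone and to 0.045 with a replicate block. FKBP5, a co-chaperone that lowers the receptor's hormone affinity, was the single call among the 26 receptor and coregulator genes tested. It rose from 6.12 and 6.2 CPM to 13.2 and 15.8 CPM (1.23 ± 0.21, adjusted p = 0.0003 in edgeR).

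Neither the target of GSK591 nor its listed partners passed the test. PRMT5 had 13.5 and 14.7 CPM with GSK591 and 11.5 and 16.4 CPM with Dex (log2 fold change -0.03 ± 0.16, and -0.29 without the second Dex library), and SNRPB, which encodes a spliceosomal Sm protein that PRMT5 methylates, stood at -0.06 ± 0.12. None of the 14 arginine methylation genes tested was called by edgeR's quasi-likelihood test or by DESeq2, 1 had an unadjusted p under 0.05, and their log2 fold changes ran from -0.24 to 0.50. Of 21 pause release genes, ELL2, an elongation factor gene, rose (0.61), and MEPCE (-0.60), whose product caps 7SK RNA, and CDK9 (-0.40), the kinase that releases paused polymerase, fell. The CDK9 call was lost in DESeq2 (adjusted p = 0.12), with only the groups compared (0.095 in edgeR) and without the second Dex library (0.13 in edgeR), and that of ELL2 in DESeq2 (adjusted p = 0.15), under library size alone (0.18 in edgeR) and with only the groups compared (0.051 in edgeR). The heat shock chaperones had the lowest median of the lists fixed by symbol, -0.22 over 18 genes, with BAG3 the single call (0.53, higher). BAG3 lost this call in DESeq2 (adjusted p = 0.073) and under library size alone (0.24 in edgeR), where 6 chaperone genes were called lower. Of 26 p53 targets CDKN1A (0.66) and TP53I3 (0.43) rose, and library size alone took both calls away.

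The C/EBP and Krüppel-like factors are families of transcription factors through which glucocorticoids act on secondary targets. Of 19 tested, 6 rose and 2 fell, and the median of 0.16 became -0.04 under library size alone. This list shares 5 members with the glucocorticoid target list. Among the 14 tested outside that list, 2 rose and 1 fell, with a median of 0.07. KLF9, a repressor induced by steroid hormones, had 7.54 and 7.39 CPM with GSK591 and 25.9 and 18.4 CPM with Dex (log2 fold change 1.57 ± 0.19, adjusted p = 3.3e-07 in edgeR). KLF6, a tumour suppressor, had 90.0 and 96.7 CPM against 230 and 201 CPM (1.21 ± 0.10). CEBPB had 42.0 and 32.3 CPM against 87.0 and 71.8 CPM (1.10 ± 0.14). The remaining rises were KLF4 (0.77), CEBPD (0.52) and KLF5 (0.44), and the falls were KLF15 and KLF10.

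KLF15, known as a direct receptor target that promotes amino acid breakdown (chr3:126342635-126357442, minus strand), fell with Dex beside GSK591, as did KLF10. It had 26.3 and 30.7 CPM in untreated cells, 87.3 and 57.5 CPM with GSK591, and 49.8 and 42.2 CPM with GSK591 and Dex (log2 fold change with Dex -0.65 ± 0.18, adjusted p = 0.028 in edgeR). The 2 GSK591 libraries differed widely from each other, and the higher Dex library lay just below the lower of them. Without the second Dex library the change was -0.53 with an adjusted p of 0.23 in edgeR. DESeq2 gave an adjusted p of 0.48. Beside MS023, Dex raised KLF15 by 1.14 (adjusted p = 3.5e-05 in edgeR).

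Several genes with the largest fold changes were outside the lists. Among genes of at least 2 CPM, the largest rises were ENSG00000274507, within PYGB on chromosome 20 (2.6 ± 0.44), ENSG00000285938, which overlaps the start of BCL6 (2.58 ± 0.42), and PSORS1C3 (2.48 ± 0.32). PSORS1C3 had 1.53 and 1.19 CPM with GSK591 and 6.93 and 8.42 CPM with Dex. CAVIN2, which shapes caveolae, rose from 7.07 and 8.23 CPM to 23.34 and 26.6 CPM (1.70 ± 0.17), and LURAP1L from 10.1 and 11.7 CPM to 31.3 and 30.1 CPM (1.49 ± 0.15). FGD4, an activator of the GTPase CDC42, rose by 1.32 ± 0.17, and the long noncoding RNA LINC03061 by 1.19 ± 0.10. The largest fall among genes of at least 2 CPM was that of SLC52A2, a riboflavin transporter gene, from 6.71 and 9.18 CPM to 2.12 and 1.38 CPM (-2.16 ± 0.31). Its exons overlap those of FBXL6, which fell as well (-1.02). Among coding genes with no overlap, CXXC1, a subunit of a histone methyltransferase complex, fell from 17.3 and 18.0 CPM to 9.05 and 7.19 CPM (-1.11 ± 0.17). COL11A1, a fibrillar collagen gene, fell from 4.36 and 4.41 CPM to 1.56 and 1.38 CPM (-1.57 ± 0.39) and lost its call without the second Dex library.

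The genes that fell were short. Among protein-coding genes that averaged 10 CPM or more, the median span from annotated start to end was 8786 bases for 375 genes that fell, 30835 bases for 190 that rose and 29961 bases for all 8656 tested. Spans under 10 kb made up 55.7% of the genes that fell, 21.1% of those that rose and 21.3% of all. The falls beside MS023 showed the same feature, with a median of 9463 bases over 446 genes. The region of each gene that was counted is not given in the sources used here. Exons of 245 of the 498 genes that fell (49.2%) overlapped no other annotated gene, against 61.0% of the rises and 55.9% of all genes tested.

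**Figure D4:**
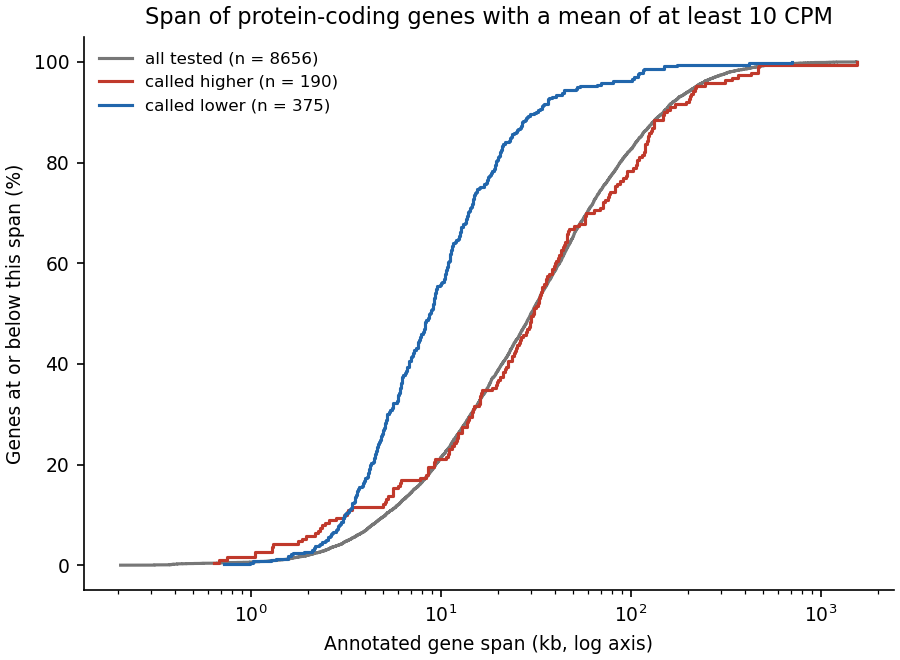
Share of protein-coding genes (%) at or below each annotated span (kb, log axis), for genes averaging 10 CPM or more: all tested (grey, 8656), called higher (red, 190) and called lower (blue, 375). The blue curve lies to the left, with 55.7% under 10 kb, and the red curve follows the grey one.

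Promoter sequence was examined in the 250 bases before and 50 bases after each start in RefSeq (GRCh38.p14). The palindromic glucocorticoid element GNACANNNTGTNC, the same on both strands, occurred in 0.48% of 27305 promoters of the table and in 0.302% of the 12913 genes tested that matched. It occurred in 2 of 195 matched genes that rose (1.03%), MAP3K6 and MIRLET7IHG, and in 2 of 364 that fell (0.549%), RHOT2 and SMARCD2. The CArG box, the site of serum response factor, which also drives actin genes, occurred in 1.60% of all promoters and 1.42% of those of the 12913 genes tested, in 6 genes that rose (3.08%) including EGR1, and in 7 that fell (1.92%) including ACTG1 and FLNA. A match describes letters, not a bound site. The 250 bases before the start are shown for MAP3K6 and MIRLET7IHG, the rises with the receptor's element, and for EGR1 and ACTG1, which carry the CArG box and moved in opposite directions, with the motif in capitals.
MAP3K6, chr1:27366962-27367211, minus strand: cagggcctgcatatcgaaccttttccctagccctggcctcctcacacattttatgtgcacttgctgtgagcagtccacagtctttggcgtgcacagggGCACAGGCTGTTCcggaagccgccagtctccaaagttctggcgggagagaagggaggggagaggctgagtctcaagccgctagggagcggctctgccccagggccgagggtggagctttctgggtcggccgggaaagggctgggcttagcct
MIRLET7IHG, chr12:62602493-62602742, plus strand: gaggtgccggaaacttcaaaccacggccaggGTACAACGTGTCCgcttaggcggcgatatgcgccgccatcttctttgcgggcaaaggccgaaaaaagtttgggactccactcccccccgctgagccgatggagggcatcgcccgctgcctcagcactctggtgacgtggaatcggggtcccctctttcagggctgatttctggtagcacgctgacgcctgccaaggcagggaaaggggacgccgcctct
EGR1, chr5:138465229-138465478, plus strand: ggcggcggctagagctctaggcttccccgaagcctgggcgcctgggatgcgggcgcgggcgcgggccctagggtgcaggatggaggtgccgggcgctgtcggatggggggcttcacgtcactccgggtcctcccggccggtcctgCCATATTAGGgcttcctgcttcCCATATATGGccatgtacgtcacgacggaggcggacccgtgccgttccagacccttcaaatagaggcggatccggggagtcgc
ACTG1, chr17:81512800-81513049, minus strand: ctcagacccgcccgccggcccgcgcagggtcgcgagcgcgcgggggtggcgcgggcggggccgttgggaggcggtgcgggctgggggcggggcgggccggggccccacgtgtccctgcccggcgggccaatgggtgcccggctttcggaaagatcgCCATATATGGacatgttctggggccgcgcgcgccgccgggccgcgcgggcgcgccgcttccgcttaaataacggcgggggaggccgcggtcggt
MAP3K6, a stress-activated kinase gene, had 22.6 and 21.3 CPM with GSK591 and 32.7 and 27.9 CPM with Dex (log2 fold change 0.46 ± 0.13). Its call was lost in DESeq2 (adjusted p = 0.14), under library size alone (0.35 in edgeR) and with only the groups compared (0.082 in edgeR). MIRLET7IHG, the host of let-7i, had 69.7 and 72.0 CPM against 95.2 and 93.0 CPM (0.41 ± 0.10). Its call was kept in DESeq2 and lost under library size alone (adjusted p = 0.38 in edgeR). The windows of PER1, TSC22D3, ERRFI1, ZFP36, ANGPTL4 and KLF9 held no match to the receptor element.

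Of 170 microRNA genes and hosts tested, 10 rose and 4 fell, against 1.43% and 2.27% of all genes tested. DESeq2 called only 3 of the list higher and 2 lower. MIR4530, on the opposite strand 211 bases from ZFP36, rose from 9.18 and 9.42 CPM to 19.7 and 13.8 CPM (log2 fold change 0.85 ± 0.20). MIR191 fell from 4.24 and 3.22 CPM to 1.98 and 1.07 CPM (-1.27 ± 0.36) and lost its call without the second Dex library. PRO-seq reads over these loci come from the primary transcript and give no level of the mature microRNA. The mature sequences from RefSeq are shown to identify the loci, with the seed (bases 2 to 8) in capitals; the seeds differ.
miR-4530: cCCAGCAGgacgggagcg
miR-191-5p: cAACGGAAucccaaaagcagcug
The hosts MIR23AHG (-0.59) and MIR194-2HG (-0.90) fell as well. MIR23AHG, which carries the cluster of miR-23a, miR-27a and miR-24-2, had 502 and 472 CPM with GSK591 and 305 and 341 CPM with Dex. Of the rises, 6 were MIR3648-1, MIR3648-2, MIR6724-1, MIR6724-2, MIR6724-3 and MIR663AHG, of which the MIR3648 and MIR6724 genes are copies within ribosomal DNA repeats, so that the counts of near-identical copies are uncertain. Their libraries spread widely: MIR3648-1 had 34.4 and 39.6 CPM in untreated cells, 293 and 84.4 CPM with GSK591 and 845 and 305 CPM with Dex. The groups with and without Dex were separated for this gene by 305 against 293 CPM. In DESeq2 the calls of MIR3648-1 (adjusted p = 0.16), MIR3648-2 (0.17), MIR6724-1 (0.32), MIR6724-3 (0.22) and MIR663AHG (0.078) were lost, and that of MIR6724-2 was kept.

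Of 86 ribosomal protein genes tested, 3 fell, among them RPL10 (-0.48) and RPL28 (-0.40), and none rose, against 2.27% and 1.43% of all genes tested. Exons of RPL10 overlap, among others, those of DNASE1L1, which fell as well (-0.58), so the reads of RPL10 are uncertain. Of 60 histone genes, the linker histones H1-2 (0.39), H1-4 (0.41) and H1-5 (0.46) rose and H2BC18 (-0.36) fell; none of the 3 rises was called under library size alone or without the second Dex library. The 29 mitochondrial genome genes had 26 members above 0 and 3 called higher. Their median of 0.29 was 0.06 under library size alone and -0.15 without the second Dex library, the one with a mitochondrial share of 58.0%. Their 3 calls, the transfer RNA genes MT-TM, MT-TV and MT-TC, were lost without it. The aldo-keto reductase genes AKR1C1 and AKR1C2 (both 0.54) were the 2 calls among the A549 markers, and they were lost in the same way. These 2 calls were also lost in DESeq2 (adjusted p = 0.14 and 0.13). The same held in edgeR under library size alone (adjusted p = 0.16 for both) and with only the groups compared (0.059 and 0.051).

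Dex was also added to MS023, in libraries that share none with the present comparison. Both contrasts came from the same fit over all 14 libraries and share each gene's estimate of spread, so calls in the 2 are not fully independent. Of the 313 genes that rose beside GSK591, 279 had a fold change above 0 beside MS023, and of the 498 that fell, 448 lay below 0; the medians were 0.47 and -0.34, against -0.02 over all genes. Called in the same direction in both were 176 rises, 56.2% of those beside GSK591 and 13.6% of the 1293 beside MS023 (5.9% of genes tested), and 215 falls, 43.2% of those beside GSK591 and 31.9% of the 673 beside MS023 (3.07%). PER1 rose by 1.89 and 1.91 and ANGPTL4 by 1.45 and 1.52 beside GSK591 and MS023. AJUBA changed by -0.999 and -1.04, and IER2 by -0.93 and -1.12. For these 4 genes the adjusted p of the difference in edgeR lay between 0.73 and 0.99, which does not show that the effects are equal.

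The difference between the Dex effects passed edgeR's test for 252 genes (1.15%), of which 234 (1.07%) were lower beside GSK591 and 18 (0.0822%) higher. Of the 252, 35 were also called for Dex beside GSK591. The count rested on single libraries: it was 8 without the first MS023 library, 31 without the first GSK591 library and 490 without the first library of GSK591 with Dex, and DESeq2 gave 70. CEBPB rose by 1.10 beside GSK591 and 2.09 beside MS023, CEBPD by 0.52 and 1.47, and IRS2 by 1.08 and 1.72. CEBPA did not pass for Dex beside GSK591 (0.08, with 87.7 and 74.5 CPM before and 94.5 and 76.2 CPM after), and rose by 1.26 beside MS023. Its level without Dex differed between the inhibitors: 46.1 and 43.1 CPM in untreated cells and 30.2 and 49.5 CPM with MS023. KLF2 (-0.02 and 0.94) and the AP-1 gene JUND (-0.13 and 0.79) showed the same order. ACTB fell by 0.86 beside GSK591 and stood at -0.13 beside MS023. GSK591 alone against untreated cells gave 67 calls (0.306%), among them CEBPA at 0.86 and KLF15 at 1.34; that comparison shares its GSK591 libraries with the one described here.

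**Figure D5:**
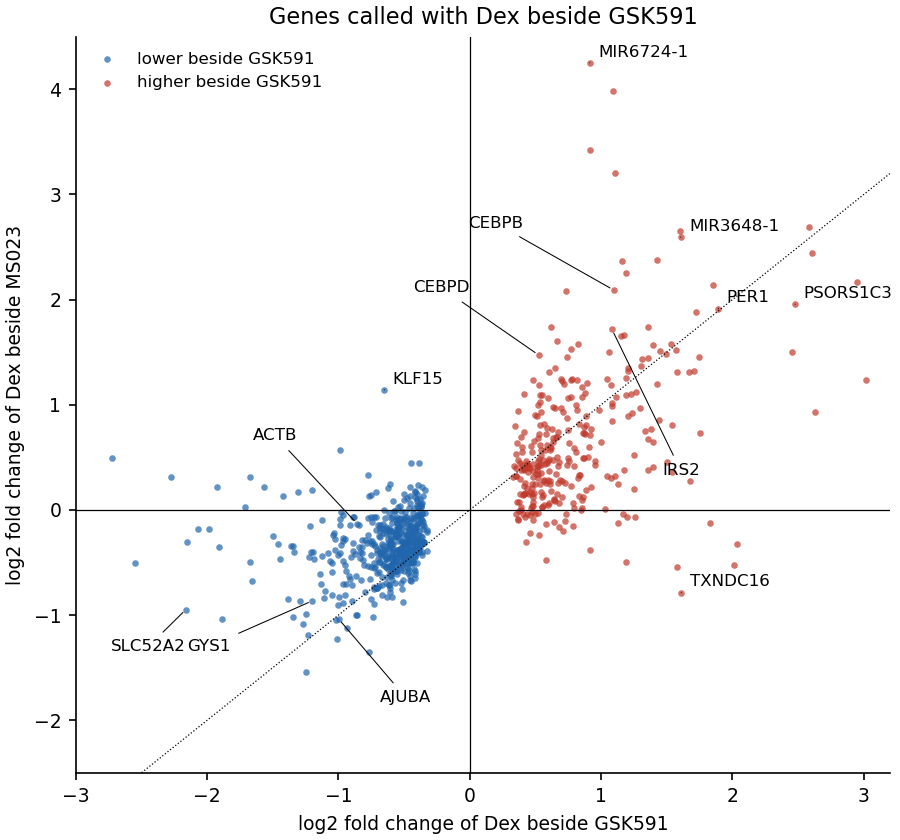
Log2 fold change of Dex beside GSK591 (x) against that beside MS023 (y) for the called genes, red higher and blue lower beside GSK591; the 3 genes with the lowest x values are not drawn, and the dotted line marks equal change. Most red points lie above 0 and most blue points below 0 on y, and KLF15, at -0.65 and 1.14, is the highest blue point.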

How the data were processed

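The deposited counts are whole-number reads per gene in 14 PRO-seq libraries, made by the authors with featureCounts 2.0.1 of the Subread package on hg38, per the submitters' processing notes. The aligner, counting region, strand setting and handling of duplicates are not given in the sources used here. All 58780 genes were matched to GENCODE release 29 for names, spans and exon overlaps; symbols are the current ones. The members and gene lists were chosen with earlier results of these data known.

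Counts were tested with edgeR 4.0.16 (R 4.3.3) by its quasi-likelihood test with TMM scaling and filterByExpr, which kept 21910 genes, in 1 fit over all 14 libraries with 1 term per group (7 residual degrees of freedom, biological coefficient of variation 0.0728). Contrasts were GSK591 with Dex minus GSK591, the same beside MS023, and their difference, called at a Benjamini-Hochberg adjusted p under 0.05 over all genes tested. Values after ± are approximate standard errors of log2 fold changes. They were derived from edgeR's test as the absolute log2 fold change divided by the square root of its F statistic. Arms held 2 libraries each. The median standard error was 0.55 under 2 CPM, 0.28 from 2 to 10 CPM, 0.15 from 10 to 50 CPM and 0.10 above 50 CPM.

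Genes named were, among called genes of at least 2 CPM whose groups do not overlap, the 10 largest rises, 10 largest falls and 10 smallest p, over all genes and over coding genes without exon overlap, then called list members, and NR3C1, PRMT5 and SNRPB. The text describes a choice of these. FLNA, MAP3K6, the promoter matches and the genes whose Dex effect differed between the inhibitors were chosen after their values were seen. Some genes that the rule names are not reported here. The 22 lists comprised 20 of genes by function or family and 2 of cell type markers; snoRNA genes gave no call among 51 tested in edgeR or DESeq2, with 8 at an unadjusted p under 0.05. Simulated counts with 197 tested genes changed by 1 log2 unit gave 65.0% of them called and 13 calls among the unchanged of 21453 genes, for this contrast. The simulation drew every gene independently and held no outlying library or shift in mitochondrial share. It therefore does not show how many false calls the real libraries give. Alternatives were DESeq2 1.42.0, DESeq2 size factors in edgeR, library size alone, nuclear library size alone, no count filter, only the groups compared, a replicate block, and each library left out. Figures used matplotlib 3.10.9.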

Additional observations from a re-analysis of the deposited data

Results flagged for a closer look

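The effect of Dex differed between the inhibitors, by the test of the difference itself (edgeR, adjusted over all genes tested), for 252 genes. Differences are given as the log2 effect beside GSK591 minus that beside MS023. Among named genes and list members that passed, the transcription factor genes stood at -1.79 (KLF15), -1.19 (CEBPA), -0.996 (CEBPB), -0.96 (KLF2), -0.95 (CEBPD), -0.92 (JUND) and -1.19 (NR1D2). Feedback and signalling genes stood at -0.92 (SMAD7), -0.63 (IRS2), -0.71 (BTG1), -0.58 (ZFP36L2) and -0.73 (PHLDA3). COPRS, a PRMT5 cofactor gene, stood at -1.22, the salt transporter gene SLC12A2 at -0.87, ACTB at -0.73 and the noncoding ENSG00000267521 at -1.56. The ribosomal DNA copies MIR6724-1, MIR6724-2 and MIR6724-3 stood at -3.34, -2.90 and -2.51. The single value above 0 in this set was TXNDC16 at 2.40; it had 0.353 and 2.15 CPM with GSK591 and 3.11 and 4.59 CPM with GSK591 and Dex. Beside these values, the mitochondrial share of reads was 44.5% and 39.8% in the MS023 libraries without Dex, against 48.6% and 46.9% in the GSK591 libraries, and its part in the differences was not tested.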

How the results depend on the processing

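The 811 calls for Dex beside GSK591 became 775 with DESeq2 size factors, 898 with the nuclear library size and 767 without a count filter. Library size alone gave 1472, of which 595 were among the 811, DESeq2 410 (141 higher, 269 lower) and a fit of only the groups compared 385 (168 higher, 217 lower). Leaving out single libraries gave 339 to 1007 calls: 339 and 364 without the first or the second GSK591 library, 1007 and 354 without the first or the second Dex library. The 252 differences between the inhibitors became 246 with DESeq2 size factors, 69 with library size alone, 480 with the nuclear library size, 294 without a filter, 70 with DESeq2 and 135 with only the groups compared. Leaving out single libraries gave 8 to 490: 8 without the first MS023 library, 31 without the first GSK591 library, 57 without the second library of MS023 with Dex, 105 without the second and 490 without the first library of GSK591 with Dex, and 197 to 339 without each of the others. Fits with a library left out hold fewer libraries, and the cause of these changes was not tested. Where an arm was left with 1 library, it was assumed to vary like the other groups. A replicate block gave 860 and 257 calls; among named genes it added NR3C1 and ended the call of MT-TM. The labels do not say that replicate numbers mark a shared culture or day, and deviations of same-numbered libraries correlated at 0.114 over 17560 genes. Of 144 called genes examined singly, 54 kept call and sign in every setting that tested them, including PER1, TSC22D3, ERRFI1, ZFP36, NFKBIA, FKBP5, GYS1, ACTB, ACTG1, AJUBA and IER2. Some calls were lost whichever single library of the comparison was left out, with the fewest losses without the first Dex library. Without the second Dex library, KLF15, EGR1, COL11A1, JUN and BCL6 were among those that lost their call. Why calls were lost was not tested. No direction reversed past the threshold. Depth limits genes under 2 CPM, of which 0.552% were called, against 13.0% above 50 CPM.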
